A study of Mus musculus with 12 samples.

Results

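The mitochondrially encoded genes were taken as the rows of the expression table whose gene symbol starts with mt-, which gave 37 of 55487 rows: 13 protein-coding genes, 2 ribosomal RNAs (rRNAs) and 22 transfer RNAs (tRNAs), all on the mitochondrial chromosome (M) of GRCm38. The libraries came from 3T3-L1, a line of mouse fibroblasts that form adipocytes after hormonal induction. Cells carried a lentiviral control hairpin (shScram) or a lentiviral hairpin against Fto (shFTO), the gene of an RNA demethylase, and both lines had been selected with puromycin. Each line was sampled as uninduced preadipocytes (Pre), during mitotic clonal expansion after induction (MCE) and after differentiation (Diff), so that shScram_Pre, shScram_MCE, shScram_Diff, shFTO_Pre, shFTO_MCE and shFTO_Diff each had 2 libraries and 12 were compared. The paper describes fragmentation of total RNA and selection of a short size class where it names rhein-treated cells. Whether the libraries used here were made in the same way is not stated there. Neither selection of polyadenylated RNA nor removal of rRNA is named for them in the sources used here. Which Fto hairpin was used is not given in the labels. The labels do not say whether the replicates were separate cultures, so p-values measure only the spread between these libraries, which may be technical. Values are in TPM, a share of transcripts corrected for gene length and scaled to the same total in every library, so the sequencing depth is unknown.

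The mitochondrial chromosome is a small circle whose strands, called heavy and light, are each copied into long transcripts that hold many genes. The tRNAs lie between most of the other genes, and cutting them out releases the mRNAs and rRNAs. The 13 proteins are membrane subunits of the respiratory chain complexes I, III and IV and of ATP synthase (complex V), and all other subunits, the mitochondrial ribosomal proteins and the transcription machinery are encoded in the nucleus. Adipocyte differentiation is known for an increase in mitochondrial mass.

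Fto was low in every shFTO library. At Pre its level was 52.7 and 58.3 TPM with the control hairpin, at MCE 59.1 and 55.7 TPM, and at Diff 73.5 and 70.8 TPM. In shFTO the values were 5.51 and 5.55 TPM, 6.32 and 6.03 TPM, and 7.47 and 7.05 TPM at the same stages. The log2 fold change was -3.11 at Pre, -3.02 at MCE and -3.15 at Diff (SE 0.11 for each). Replicate 1 of shScram_Diff is shScram by its title but Fto knockdown by its treatment label. It was grouped by title, and its Fto level of 73.5 TPM lay among those of the shScram libraries.

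Replicate 1 of shScram_Pre stood apart from the other libraries. Its log2 difference from replicate 2 fell with the GC content of the genes, with a Spearman correlation of -0.69 across 15928 genes that share these libraries, while the same correlation lay between -0.20 and 0.36 in the other groups. The mitochondrial genes had a median GC content of 35.6%, against 49.4% for all genes tested, and 31 of the 37 were higher in replicate 1 than in replicate 2, by a median log2 difference of 0.84. Many values at Pre are therefore also given without it. The part of base composition in the Pre comparison was not tested beyond the corrected fit given with it.

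Reads of 7 protein genes cannot be told apart from those of near-identical nuclear copies. A block on chromosome 1 of GRCm38 (chr1:24611535-24616197, minus strand) carries copies at least 99% identical to all or part of mt-Co1 (Gm29216), mt-Co2 (Gm28661), mt-Atp6 (Gm10925), mt-Co3 (Gm28437), mt-Nd3 (Gm28438), mt-Nd4l (Gm10222) and mt-Nd4 (Gm28439). The copies were listed at levels of the same order as those of the mitochondrial genes. Gm28661 stood at 98.4% to 99.9% of the mt-Co2 TPM and Gm10925 at up to 106% of mt-Atp6, while Gm28438 reached 127% of mt-Nd3, and the partial copies Gm29216 and Gm28439 stood at 38.1% to 47.3% of mt-Co1 and at most at 74.4% of mt-Nd4. How the aligner shared out reads that match both places is not given in the sources used here. The copies took 27.8% to 30.3% of the TPM of the mitochondrial genes and copies together in each library, so the levels of these 7 genes are uncertain. With the copies added to their genes, 24, 7 and 18 of the 37 genes were called in shFTO against shScram at Pre, MCE and Diff, against 23, 7 and 19 without. Most copies stood at a nearly constant share of their gene, so adding them could hardly move its fold change. The counts therefore cannot show whether the comparisons depend on how the reads were shared out.

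Neighbouring mitochondrial genes also share bases. The longest shared stretch, printed because it is where mt-Atp8 reads can also count for mt-Atp6, covers 43 bases at chrM:7927-7969 on the heavy-strand transcript, and its capitals mark the start codon of mt-Atp6.
mt-Atp8 and mt-Atp6: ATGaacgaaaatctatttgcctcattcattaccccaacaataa
mt-Nd5 and mt-Nd6 overlap by 14 bases on opposite strands, and mt-Co1 and the serine tRNA mt-Ts1 by 3. A strand setting for the counting is not given in the sources used here. Reads of mt-Nd6 and of the 8 tRNAs copied from the light strand can therefore not be told apart from heavy-strand RNA that runs through the same bases.

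The 37 genes together took between 4.58% and 14.5% of all TPM. Both shFTO libraries lay below both shScram libraries at every stage. At Pre the share was 14.5% and 7.34% in shScram (10.9% ± 5.09, SD, n = 2) and 4.79% and 5.44% in shFTO (5.11% ± 0.462, SD, n = 2). At MCE it was 6.22% and 5.72% in shScram (5.97% ± 0.359, SD, n = 2) and 4.89% and 4.83% in shFTO (4.86% ± 0.0422, SD, n = 2). At Diff it was 7.40% and 9.17% in shScram (8.28% ± 1.25, SD, n = 2) and 4.61% and 4.58% in shFTO (4.59% ± 0.0179, SD, n = 2). The shFTO mean was thus 46.8% of the shScram mean at Pre, 81.4% at MCE and 55.4% at Diff, and 69.7% at Pre with the shScram library that stood apart left out. In shScram cells the share was lower at MCE than at Pre and higher again at Diff, without overlap between neighbouring stages. In shFTO cells the Pre and MCE libraries overlapped, and Diff lay slightly below MCE, at 94.5% of it. In these bulk samples, fewer cells of a type and less RNA per cell cannot be told apart.

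**Figure D1:**
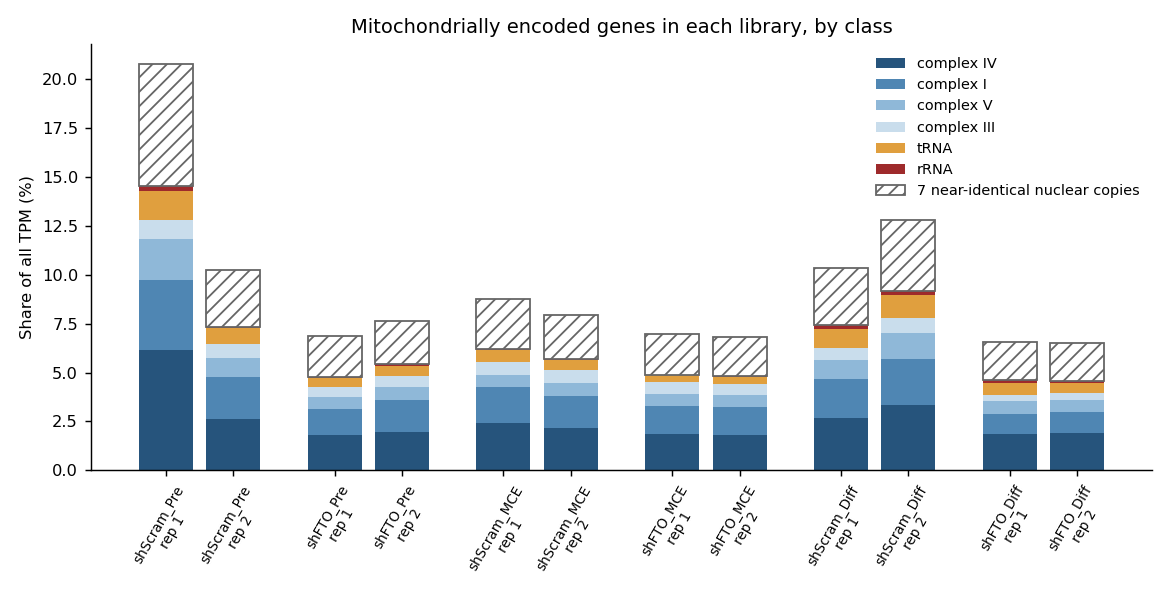
Share of all TPM (percent, linear axis) taken by the mitochondrial genes in each of the 12 libraries, stacked by complex I, III, IV and V, rRNA and tRNA, with the 7 nuclear copies hatched. Replicate 1 of shScram_Pre reached 14.5%, while all 6 shFTO libraries lay between 4.58% and 5.44%.

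By mean level over the 12 libraries, mt-Co1, the catalytic subunit of complex IV, led with 15168 TPM. It was followed by mt-Cytb, the cytochrome b of complex III, with 6084 TPM, and by mt-Co2, mt-Atp6, mt-Nd1 and mt-Co3 with 5803, 5301, 4693 and 4523 TPM. The lowest protein gene was mt-Nd3, of complex I, with 645 TPM. mt-Co1 was the highest of the 37 in every library, and neighbours further down this order overlapped in their ranges over the libraries. The rRNAs mt-Rnr1 and mt-Rnr2 averaged 609 and 460 TPM over the 12 libraries, but mt-Rnr1 lay above mt-Nd3 in 5 of them and mt-Rnr2 in 2. The tRNA rows, 59 to 75 bases long, ran from 2.81 TPM for mt-Tf, the phenylalanine tRNA, to 1903 TPM for mt-Ts1. How well modified, folded tRNAs of this length were captured is not given in the sources used here. The length setting that the paper gives for trimming its paired RNA-seq reads is above the length of all these rows. Reads of that length would also cover neighbouring bases.

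In preadipocytes many of the protein genes and tRNAs were lower in shFTO than in shScram, while the rRNAs overlapped between the lines. By limma on log2(TPM + 1), with Benjamini-Hochberg adjustment over 15968 genes tested, 23 of the 37 fell and none rose, against 12.3% of all genes tested that fell and 15.9% that rose. All 37 had passed the filter on low values. The median log2 fold change was -0.96, against 0.08 for all genes tested. After the GC correction given below, the middle value of the 37 was that of mt-Atp6, -0.23. Without replicate 1 of shScram_Pre it was that of mt-Tn, -0.66. In 28 of the 37 both shFTO libraries lay below both shScram libraries and in 0 above, against 26.9% and 33.6% of all genes. The calls comprised 9 of 13 protein genes (5 of 7 in complex I, 2 of 3 in complex IV and 2 of 2 in complex V), 0 of 2 rRNAs and 14 of 22 tRNAs. Without replicate 1 of shScram_Pre 21 fell, 18 of them among the 23, while mt-Nd4, mt-Atp6, mt-Tf, mt-Ts2 and mt-Tp were no longer called (adjusted p from 0.0583 to 0.1003) and mt-Ta, mt-Tn and mt-Tc were. Without replicate 1 or 2 of shFTO_Pre 4 and 11 were called. With only the 4 Pre libraries in the limma fit 0 of the 37 were called, as were 0 of all genes tested, and at an unadjusted p under 0.05 16 of the 37 were lower and 0 higher. After a correction of each library for GC content 9 were lower and 1 was higher, mt-Tg, the glycine tRNA, which went from -0.45 (adjusted p = 0.132) to 0.50 (adjusted p = 0.0304). Of the protein genes only mt-Nd2, mt-Co1 and mt-Atp8 stayed called after it (adjusted p = 0.0145, 0.0489 and 0.0430). In that fit 11 of the 37 lay above 0, against 0 without the correction, among them mt-Nd6, mt-Ty and mt-Td at 0.14, 0.05 and 0.02.

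During mitotic clonal expansion fewer genes passed the test between the lines than at Pre in the fit to all 12 libraries. This was not so in fits to the 4 libraries of each stage. At MCE such a fit called 19 of the 37, beside 5913 of the 15968 genes tested, and at Pre 0, beside 0 of all genes. Of the 37, 7 fell in shFTO and none rose, against 7.26% of all genes that fell and 10.5% that rose, and all 7 were tRNAs: mt-Ta, mt-Tn, mt-Tc, mt-Ty, mt-Tp, mt-Ti and mt-Tk, which carry alanine, asparagine, cysteine, tyrosine, proline, isoleucine and lysine. None of the 13 protein genes and neither rRNA passed the limma test at MCE, and at an unadjusted p under 0.05 1 protein gene and 0 rRNAs were lower. The median log2 fold change was -0.48 over the 37 genes and -0.24 over the 13 protein genes, against 0.05 for all genes. Both shFTO libraries lay below both shScram libraries in 27 of the 37 genes and above them in 4, against 30.3% and 41.1% of all genes. Leaving out any of the 4 MCE libraries left 2 to 4 calls, and leaving out either shScram_Pre library, which changes only the estimate of the spread, gave 14.

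After differentiation the mitochondrial genes were again lower in shFTO, and all complex I genes were called. Of the 37 genes 19 fell in shFTO and none rose, against 9.31% of all genes that fell and 11.9% that rose, with a median log2 fold change of -0.88 against 0.03. In 30 of the 37 both shFTO libraries lay below both shScram libraries and in 1 above, against 34.0% and 39.0% of all genes. The calls comprised 7 of 7 genes of complex I, mt-Cytb of complex III, 0 of 3 genes of complex IV, 1 of 2 of complex V, 0 of 2 rRNAs and 10 of 22 tRNAs. At an unadjusted p under 0.05, 2 of 3 complex IV genes and 0 rRNAs were lower at Diff. Of the tRNAs copied from the light strand 7 of 8 fell, and of those from the heavy strand 3 of 14. Leaving out a Diff library left 3 calls (replicate 2 of shScram), 5 (replicate 2 of shFTO), 8 (replicate 1 of shFTO) or 11 (replicate 1 of shScram).

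**Figure D2:**
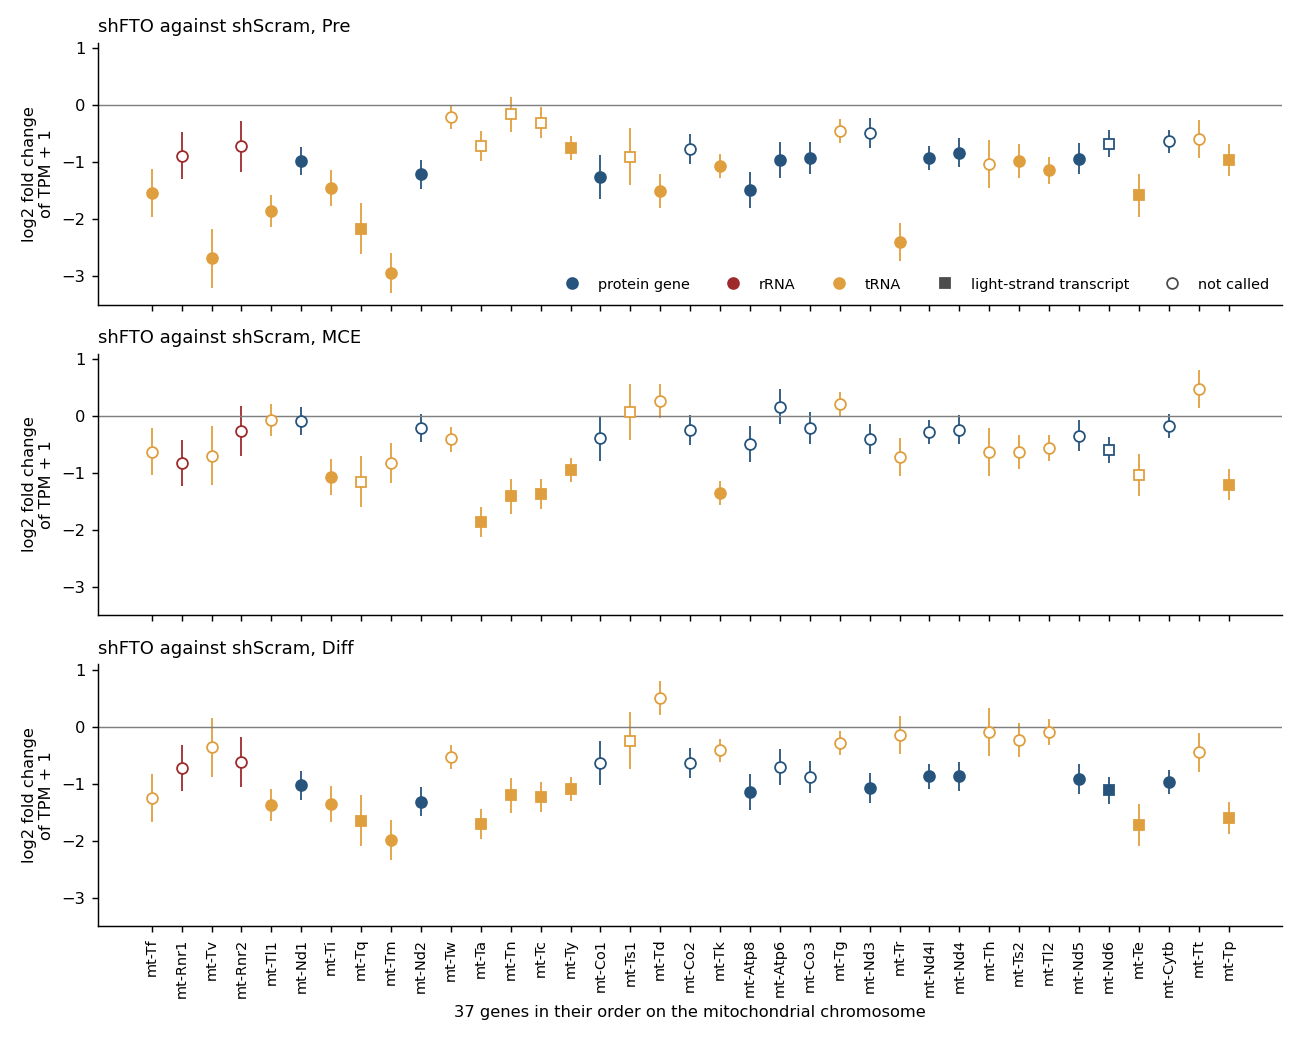
Log2 fold change ± SE (shFTO against shScram, log2(TPM + 1) scale) of the 37 genes in chromosome order, with a panel for each stage. Filled symbols passed the test, squares are light-strand transcripts, and the filled symbols, 23 at Pre, 7 at MCE and 19 at Diff, all lie below 0.

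The genes with the highest level in each class show the pattern library by library. For mt-Nd1 (ENSMUSG00000064341, chrM:2751-3707), a core subunit of complex I, shScram held 10680 and 6084 TPM at Pre, 3842 and 3828 at MCE and 4931 and 6126 at Diff. The corresponding shFTO values were 3811 and 4379 TPM, 3597 and 3629, and 2658 and 2748. The lines did not overlap at any stage, but at MCE they lay close together. The log2 fold change was -0.98 at Pre (SE 0.25, adjusted p = 0.0229), -0.09 at MCE (adjusted p = 0.87) and -1.02 at Diff (adjusted p = 0.0197). The Pre value was -0.57 without replicate 1 of shScram_Pre. After the GC correction the Pre value was -0.33 and no longer called (adjusted p = 0.0832), and the MCE value was 0.05. For mt-Nd6 (ENSMUSG00000064368, chrM:13552-14070), the light-strand subunit of complex I, shScram held 3047 and 2340 TPM at Pre, 2180 and 2084 at MCE and 2556 and 2896 at Diff. In shFTO these stages gave 1314 and 2129 TPM, 1388 and 1434, and 1149 and 1378. Again both shFTO libraries were lower at each stage, and only the Diff difference passed the test, with a log2 fold change of -1.11 (SE 0.24, adjusted p = 0.0102) against -0.67 at Pre and -0.59 at MCE. Its Pre value was -0.48 without replicate 1 of shScram_Pre.

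For mt-Cytb (ENSMUSG00000064370, chrM:14145-15288), the only mitochondrial subunit of complex III, shScram held 9699 and 6812 TPM at Pre, 6832 and 6647 at MCE and 5973 and 7693 at Diff. In the shFTO libraries it was at 4961 and 5518 TPM, 6076 and 5853, and 3444 and 3506. Its low point in shFTO was at Diff, where the log2 fold change against shScram was -0.96 (SE 0.21, adjusted p = 0.0115), against -0.64 at Pre (adjusted p = 0.0501; -0.38 without replicate 1 of shScram_Pre) and -0.18 at MCE (adjusted p = 0.643). It was also the only protein gene called between stages in shFTO, where it fell by 0.78 on the log2 scale from MCE to Diff (adjusted p = 0.0238).

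For mt-Co1 (ENSMUSG00000064351, chrM:5328-6872), shScram held 39713 and 14760 TPM at Pre, 14835 and 12766 at MCE and 15676 and 20092 at Diff. In the shFTO line the levels were 9397 and 10881 TPM, 10515 and 10507, and 11277 and 11595. The shScram_Pre libraries differed more from each other than any other pair, and both shFTO libraries were lower at each stage. The log2 fold change was -1.26 at Pre (SE 0.39, adjusted p = 0.043), -0.39 at MCE (adjusted p = 0.575) and -0.63 at Diff (adjusted p = 0.298). The Pre value was -0.55 without replicate 1 of shScram_Pre and -0.71 (adjusted p = 0.0489) after the GC correction. For mt-Atp6 (ENSMUSG00000064357, chrM:7927-8607), which forms part of the proton path of ATP synthase, shScram held 12623 and 5834 TPM at Pre, 3762 and 3315 at MCE and 5881 and 7363 at Diff. In shFTO it stood at 4313 and 4514 TPM, 3950 and 3989, and 4051 and 4015. It was lower in shFTO at Pre (log2 fold change -0.96, SE 0.31, adjusted p = 0.048), while at MCE both shFTO libraries lay above both shScram libraries, with a log2 fold change of 0.17 (adjusted p = 0.783). The Pre call was lost without replicate 1 of shScram_Pre (-0.40) and after the GC correction (-0.23, adjusted p = 0.247).

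The rRNA mt-Rnr1 (ENSMUSG00000064337, chrM:70-1024), the RNA of the small mitochondrial ribosomal subunit, stood at 1409 and 470 TPM in shScram_Pre, 391 and 335 in shScram_MCE and 944 and 1185 in shScram_Diff. The levels in shFTO were 401 and 485 TPM, 200 and 210, and 656 and 621. The lines overlapped at Pre and did not at MCE and Diff, and none of the differences passed the test (log2 fold changes -0.88, -0.82 and -0.73, adjusted p = 0.124, 0.219 and 0.248). At Pre mt-Rnr1 was at -0.09 without replicate 1 of shScram_Pre. The serine tRNA mt-Ts1 (ENSMUSG00000064352, chrM:6870-6938) stood at 5558 and 1370 TPM in shScram_Pre, 1383 and 1305 in shScram_MCE and 1997 and 2030 in shScram_Diff. Its levels in shFTO were 1384 and 1574 TPM, 1392 and 1434, and 1622 and 1790. Its Pre value in shScram rested on replicate 1, without which the log2 fold change was 0.11 in place of -0.90, and without replicate 2 it was -1.91. At MCE the log2 fold change was 0.07 and at Diff -0.24. Its level was 9.28% to 15.4% of that of mt-Co1, whose end it overlaps on the opposite strand.

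**Figure D3:**
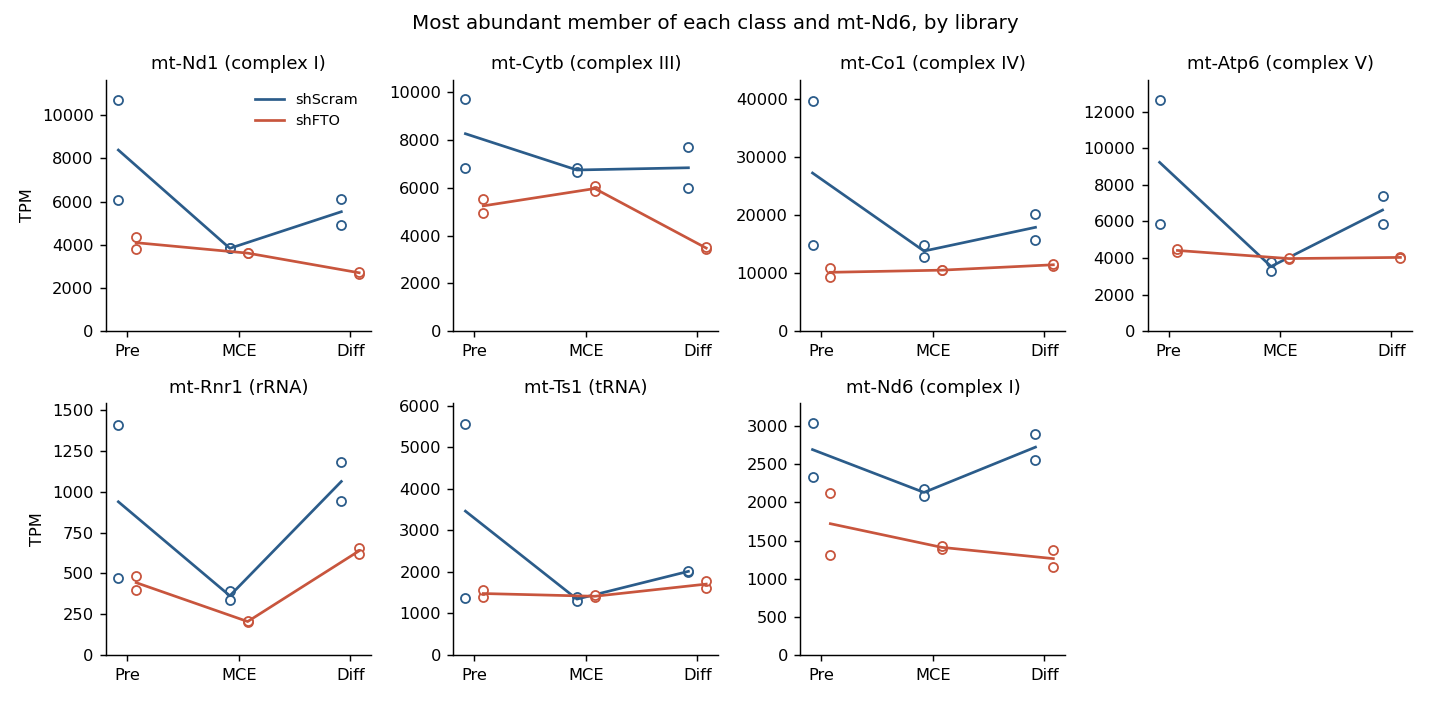
TPM (linear axis from 0) of mt-Nd1, mt-Cytb, mt-Co1, mt-Atp6, mt-Rnr1, mt-Ts1 and mt-Nd6 at each stage, with circles for libraries and lines through the group means of shScram (blue) and shFTO (red). At MCE the group means lie close together for mt-Nd1, mt-Atp6 and mt-Ts1 and further apart for mt-Nd6.

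Among the other protein genes, the complex I subunits mt-Nd2, mt-Nd4, mt-Nd4l and mt-Nd5 fell in shFTO at Pre and at Diff, with log2 fold changes between -1.31 and -0.84. Their Pre values without replicate 1 of shScram_Pre were -0.79 for mt-Nd2, -0.42 for mt-Nd4, then no longer called, -0.78 for mt-Nd4l and -0.50 for mt-Nd5. After the GC correction these Pre values were -0.47, -0.09, -0.43 and -0.26, and only mt-Nd2 was still called (adjusted p = 0.0145). The small subunit gene mt-Nd3 fell at Diff alone (-1.06, adjusted p = 0.021), and its Pre value was -0.49, or -0.03 without replicate 1 of shScram_Pre. In complex IV, mt-Co3 fell at Pre (-0.93, adjusted p = 0.0392, or -0.44 without replicate 1 of shScram_Pre) and had an adjusted p of 0.0564 at Diff. After the GC correction its Pre value was -0.34 and no longer called (adjusted p = 0.102). The gene mt-Co2, for the subunit that takes electrons from cytochrome c, was called at no stage. In complex V, mt-Atp8, a small subunit of the membrane stalk, fell by 1.49 at Pre (adjusted p = 0.0123) and by 1.14 at Diff (adjusted p = 0.0338) on the log2 scale. Its Pre value was -0.99 without replicate 1 of shScram_Pre and -0.58 (adjusted p = 0.0430) after the GC correction. Relative to mt-Atp6, mt-Atp8 stood at 65.6% to 94.9% in the shScram libraries and at 45.2% to 54.6% in the shFTO libraries, so these ranges did not overlap. The shared bases printed above count for both genes in that ratio.

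The difference between the lines was not the same size in all complexes. For complex I the summed TPM in shFTO was 51.1%, 83.1% and 49.3% of that in shScram at Pre, MCE and Diff. For complex III, mt-Cytb alone, these values were 63.5%, 88.5% and 50.9%, for complex IV 43.2%, 79.8% and 62.2%, and for complex V 42.2%, 93.9% and 53.9%. The Pre values without replicate 1 of shScram_Pre were 68.0%, 76.9%, 72.4% and 65.2% for complexes I, III, IV and V. At Diff complex I made up 32.3% and 30.2% of the TPM of the 13 protein genes in shScram and 27.3% and 27.8% in shFTO, while complex IV made up 42.6% and 42.9% against 47.7% and 47.8%. Neither share overlapped between the lines at Diff. The share of mt-Co1 alone was 25.1% and 25.8% in shScram_Diff and 29.1% and 29.3% in shFTO_Diff, but at Pre it was 31.1% and 22.9% in shScram and 22.2% and 22.6% in shFTO.

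Of the tRNAs, a run of 4 neighbours copied from the light strand, mt-Ta, mt-Tn, mt-Tc and mt-Ty at chrM:5018-5326, changed with stage and with Fto, and was singled out after the values were seen. Their sequences, taken from the GRCm38 mitochondrial chromosome and shown because these neighbours were all called at MCE and at Diff, read as follows, with the anticodon in capitals.
mt-Ta: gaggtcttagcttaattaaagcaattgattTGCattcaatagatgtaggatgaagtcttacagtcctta
mt-Tn: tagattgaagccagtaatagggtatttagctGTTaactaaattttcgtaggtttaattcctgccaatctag
mt-Tc: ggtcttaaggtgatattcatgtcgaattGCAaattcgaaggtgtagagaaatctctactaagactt
mt-Ty: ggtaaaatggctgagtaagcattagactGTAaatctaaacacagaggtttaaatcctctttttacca
The gaps between them are short, and each row spans the tRNA alone.

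For the alanine tRNA mt-Ta, shScram held 231 and 429 TPM at Pre, 358 and 348 at MCE and 787 and 985 at Diff, and shFTO held 191 and 191, 99 and 93.5, and 311 and 233. It had the lowest log2 fold change of the 37 genes at MCE, -1.87 (SE 0.26, adjusted p = 0.00165), and fell by 1.71 at Diff (adjusted p = 0.00212), while the Pre value of -0.72 had an adjusted p of 0.0694. The asparagine tRNA mt-Tn held 383 and 772, 707 and 596, and 1555 and 1873 TPM in shScram, and 491 and 484, 253 and 236, and 906 and 606 TPM in shFTO. The lines overlapped at Pre and were apart at both later stages, with log2 fold changes of -1.41 at MCE (adjusted p = 0.0137) and -1.20 at Diff (adjusted p = 0.0235). The cysteine tRNA mt-Tc held 495 and 832, 751 and 625, and 1655 and 2074 TPM in shScram, and 514 and 526, 272 and 258, and 966 and 649 TPM in shFTO. It followed mt-Tn closely, with log2 fold changes of -1.37 at MCE (adjusted p = 0.00795) and -1.23 at Diff (adjusted p = 0.0117). The tyrosine tRNA mt-Ty held 644 and 581, 453 and 316, and 1077 and 1317 TPM in shScram, and 322 and 408, 196 and 194, and 631 and 491 TPM in shFTO. It fell at all 3 stages, with log2 fold changes of -0.75, -0.95 and -1.10 (adjusted p = 0.0313, 0.0149 and 0.00666), the Pre value being 0.05 after the GC correction. Without replicate 1 of shScram_Pre, mt-Ta, mt-Tn and mt-Tc were at -1.16, -0.66 and -0.68 at Pre. After the GC correction they were above 0 at Pre, at 0.13, 0.67 and 0.41, and not called (adjusted p = 0.851, 0.322 and 0.477).

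Summed, the 4 tRNAs in shFTO stood at 71.6% of shScram at Pre, 38.5% at MCE and 42.3% at Diff. At Pre it was 59.8% without replicate 1 of shScram_Pre. The change of the shFTO effect from Pre to MCE did not pass the test for any of the 4 (interaction log2 values -1.15, -1.25, -1.07 and -0.20, adjusted p = 0.122, 0.142, 0.146 and 0.688).

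Further tRNAs differed between the lines, with mt-Tm and mt-Tv the widest at Pre on the log2 scale in the fit to all 12 libraries. The initiator and elongator methionine tRNA mt-Tm held 297 and 378 TPM in shScram_Pre against 37.2 and 48.9 TPM in shFTO_Pre, a log2 fold change of -2.94 (SE 0.35, adjusted p = 0.000989). It also fell at Diff, from 22 and 48.1 TPM in shScram to 8.11 and 6.98 TPM in shFTO (-1.98, adjusted p = 0.00449). The valine tRNA mt-Tv held 50.7 and 27.4 TPM in shScram_Pre against 4.68 and 5.23 TPM in shFTO_Pre (-2.69, adjusted p = 0.00806). For both genes the shScram_Pre libraries were far above all others, including the later shScram libraries, and without replicate 1 of shScram_Pre the Pre values were -3.12 and -2.25. The glutamate tRNA mt-Te, next to mt-Nd6 on the light strand, fell by 1.58 at Pre and by 1.72 at Diff (adjusted p = 0.0166 and 0.0111). At Diff its values were 1305 and 1613 TPM in shScram against 442 and 437 in shFTO. Of the remaining tRNAs called, mt-Tp fell at all 3 stages (-0.96, -1.20 and -1.60), as did mt-Ti (-1.46, -1.07 and -1.36). Without replicate 1 of shScram_Pre mt-Te, mt-Tp and mt-Ti were at -0.91, -0.77 and -0.87 at Pre, where mt-Tp was no longer called. After the GC correction they were at -0.80, -0.64 and -0.37 at Pre, and mt-Tp was again not called (adjusted p = 0.0765).

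Whether the shFTO effect itself changed between stages was tested by interaction contrasts. From Pre to MCE it changed for 3 of the 37 genes, all tRNAs, against 2.52% of all genes called in that direction and 2.59% in the other. For mt-Tl1, a leucine tRNA, the libraries held 1442 and 907 TPM in shScram_Pre, 267 and 374 in shFTO_Pre, 213 and 138 in shScram_MCE and 156 and 171 in shFTO_MCE. The log2 fold change thus went from -1.85 to -0.07, a difference of 1.78 (SE 0.39, adjusted p = 0.0375). For mt-Tm it went from -2.94 to -0.82 (difference 2.12, adjusted p = 0.0471). For the aspartate tRNA mt-Td, at 45.0 and 30.4 TPM in shScram_Pre, 9.86 and 15.4 in shFTO_Pre and 7.59 to 11.4 in the 4 MCE libraries, it went from -1.51 to 0.26 (difference 1.77, adjusted p = 0.0471). None of the 37 passed in the contrast of Diff with MCE (at an unadjusted p under 0.05, 1 was higher and 5 lower), where the background was 1.47% and 1.01% of all genes. That count of 0 depended on the fit: for Diff against MCE, 13 passed in a fit to the 8 MCE and Diff libraries, 9 of them protein genes, 9 with replicate 1 or replicate 2 of shScram_Pre left out, 7 of them protein genes, 3 after the GC correction and 1 under quantile normalization. All of these lay below 0 except mt-Tk, at 0.94 in the fit to the 8 libraries and in those without a shScram_Pre library, and among them were mt-Nd2 at -1.11 (adjusted p = 0.00247) and mt-Nd1 at -0.94 (adjusted p = 0.00614) in the former. In the Pre to MCE contrast no protein gene passed in the fit to all 12 libraries, while 12 did, all above 0, without replicate 2 of shScram_Pre. With the replicate number as a block, or with no filter on low values, 0 of the 37 passed there.

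Within the shScram line, 20 of the 37 genes fell from Pre to MCE and none rose, against 26.9% and 12.2% of all genes that fell and rose, with a median log2 fold change of -0.82 against -0.17. Without replicate 1 of shScram_Pre 15 fell, all among the 20, and the median was -0.38. The summed TPM of the 37 genes at MCE was 54.6% of that at Pre, and 81.3% of replicate 2 of shScram_Pre alone, with 52.9% and 88.8% for complex IV and 81.6% and 98.9% for complex III. In 26 of the 37 both MCE libraries lay below both Pre libraries and in 0 above, against 40.7% and 21.8% of all genes. The 20 called genes were 5 of 13 protein genes (mt-Nd1, mt-Nd2, mt-Co3, mt-Atp8 and mt-Atp6), 2 of 2 rRNAs and 13 of 22 tRNAs. The lowest log2 fold changes were those of mt-Tv, -3.82 (adjusted p = 0.000656), and mt-Tm, -3.53 (adjusted p = 0.000116), which were -3.38 and -3.71 without replicate 1 of shScram_Pre. At the other end of the calls, mt-Tg and mt-Ty fell by 0.64 and 0.69. The value of mt-Tg was 0.16 after the GC correction and -0.29 without replicate 1 of shScram_Pre. Leaving out that library also took mt-Rnr1 from -1.17 to -0.38, mt-Co3 from -0.82 to -0.33 and mt-Atp8 from -1.06 to -0.56. Without replicate 2 of shScram_MCE 5 were called, without its replicate 1 12, and without replicate 2 of shScram_Pre 32. From MCE to Diff 9 rose and none fell, against 20.0% and 5.22% of all genes, with a median of 0.52 against 0.23. Both Diff libraries were above both MCE libraries for 27 of the 37 and below them for 0, against 53.7% and 21.4% of all genes. The 9 were the 2 rRNAs and 7 tRNAs, among them mt-Ty and mt-Tc with the largest rises of the tRNAs, 1.65 and 1.43, and mt-Tw and mt-Tg, the tRNAs for tryptophan and glycine, with the smallest, 0.74 and 0.95. Without replicate 2 of shScram_Diff 1 gene was called, and without replicate 2 of shScram_MCE 2.

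Within the shFTO line, 9 of the 37 fell from Pre to MCE and none rose, against 19.9% and 8.8% of all genes, with a median of -0.33 against -0.18. For 23 of the 37 both MCE libraries lay below both Pre libraries and for 1 above, against 51.4% and 25.5% of all genes. All 9 were tRNAs, from mt-Tv (-1.83) and mt-Tm (-1.41) to mt-Tl1 (-0.95) and mt-Ty (-0.89). Without replicate 2 of shFTO_Pre or of shFTO_MCE 1 was called, without replicate 1 of shFTO_MCE 2, and without replicate 1 of shFTO_Pre 5. From MCE to Diff 7 rose and mt-Cytb fell, against 20.2% and 6.48% of all genes, with a median of 0.15 against 0.17. Both Diff libraries lay above both MCE libraries for 20 of the 37 and below for 13, against 51.6% and 27.2% of all genes. The 7 were both rRNAs and the tRNAs mt-Tn, mt-Tc, mt-Ty, mt-Ta and mt-Tk (1.60, 1.58, 1.51, 1.48 and 1.06), and without replicate 1 of shFTO_Diff 3 calls were left. The contrasts of neighbouring stages share the MCE libraries. Scaling by median ratios moved the median of all genes by 0.18 and -0.23 in the shScram contrasts and by 0.19 and -0.18 in the shFTO contrasts, and then 29 rather than 36 of the 37 genes lay above 0 from MCE to Diff in shScram. In shFTO it left 21 rather than 31 of the 37 below 0 from Pre to MCE, with a median of -0.10 in place of -0.33, and turned the median from MCE to Diff from 0.15 to -0.05, so the direction of the latter flips with the scaling.

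The rRNAs rose from MCE to Diff in both lines. From MCE to Diff mt-Rnr1 rose by 1.54 in shScram (SE 0.41, adjusted p = 0.0239) and by 1.64 in shFTO (adjusted p = 0.0173). The RNA of the large ribosomal subunit, mt-Rnr2, went in shScram from 268 and 179 to 716 and 810 TPM and in shFTO from 176 and 189 to 520 and 474 TPM, a rise of 1.79 and 1.44 (adjusted p = 0.0189 and 0.0413). In shScram the stages Diff and Pre overlapped, since the rRNA sum of 1660 and 1995 TPM at Diff lay between the 2515 and 811 TPM of the Pre libraries, while in shFTO 1176 and 1096 TPM at Diff lay above 744 and 889 at Pre. The nuclear noncoding RNA Malat1, read as a sign of RNA handling, also rose from MCE to Diff in both lines, by 2.38 in shScram and 2.66 in shFTO, and its part in the rRNA rise was not tested. Their sum reached 311% of its MCE value in shScram and 293% in shFTO, while that of the 13 protein genes reached 132% and 87.8%. Relative to the 13 protein genes the rRNAs stood at 1.19% and 1.01% in shScram_MCE and 2.65% and 2.56% in shScram_Diff, and at 0.835% and 0.902% in shFTO_MCE and 3.03% and 2.77% in shFTO_Diff. At Diff this ratio was higher in shFTO, without overlap.

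**Figure D4:**
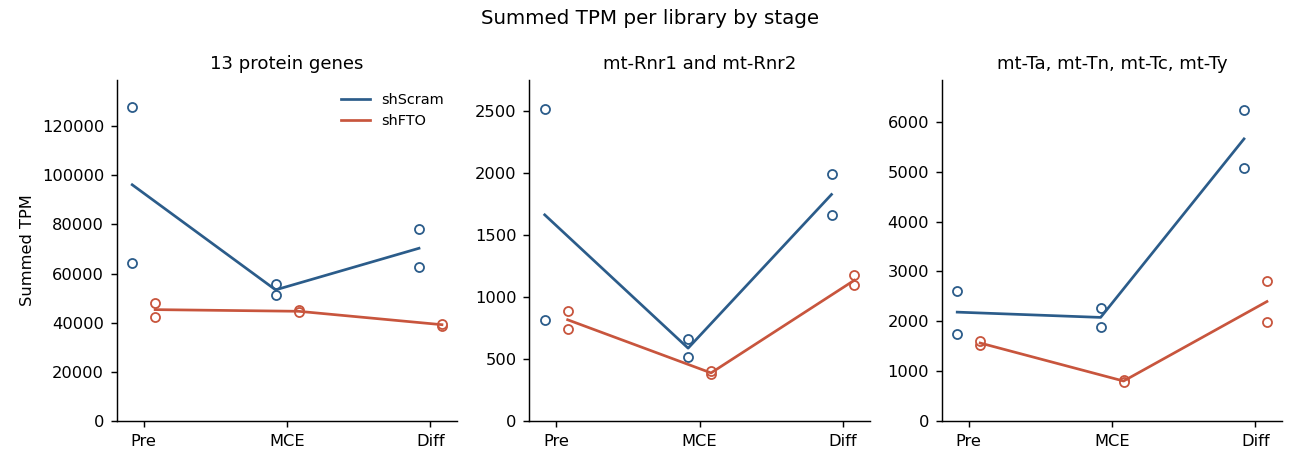
Summed TPM (linear axes from 0) of the 13 protein genes, of the 2 rRNAs and of mt-Ta, mt-Tn, mt-Tc and mt-Ty at each stage, with circles for libraries and lines through the group means. From MCE to Diff the rRNA sum rose in both lines, to 311% in shScram and 293% in shFTO, while the protein genes in shFTO went to 87.8%.

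The nuclear genes of the same complexes were read beside the mitochondrial ones, with no test between the sets. At Diff the 37 nuclear subunits of complex I summed to 4569 and 4069 TPM in shScram against 4345 and 4012 in shFTO, with overlap, while the 7 mitochondrial subunits summed to 20169 and 23592 against 10574 and 10998 TPM. Of the 37 nuclear subunits 5 fell and none rose at Diff (median log2 fold change -0.04), among them Ndufs1, a core subunit of the electron path, by 0.45 and Ndufb5 by 0.51. At Pre 5 of them rose and 1 fell (median 0.36), or 6 and 3 (median 0.15) without replicate 1 of shScram_Pre, and at MCE 1 fell. In sums at MCE, the nuclear subunits of complexes I, III, IV and V were all lower in both shFTO libraries, for instance at 4936 and 5658 TPM in shScram against 4686 and 4755 for complex I, while those of complex II, which has no mitochondrial subunit, were higher, at 414 and 428 TPM against 487 and 474. At Diff those of complexes III and V were lower without overlap, and those of complex IV overlapped as did those of complex I. Of 11 nuclear subunits of complex IV, 3 fell at Diff: Cox6c by 1.23 (adjusted p = 0.00128), Cox7b by 0.52 and Cox4i1 by 0.39. At MCE 3 of the 11 fell and none rose, against 7.26% and 10.5% of all genes: Cox6c by 1.08 (adjusted p = 0.00313), Cox7c by 0.68 and Cox4i1 by 0.42. At Pre 2 fell, Cox6c (adjusted p = 0.000835) and Cox7b by 0.46, while Cox8a and Cox5a rose by 1.79 and 0.71, or by 0.79 and 0.37 without replicate 1 of shScram_Pre. Cox6c thus fell at all 3 stages, and stood at 487 and 339 TPM in shScram_Pre against 152 and 134 in shFTO_Pre, at 439 and 462 against 206 and 220 at MCE, and at 383 and 341 against 161 and 146 at Diff. Of 15 nuclear subunits of complex V 2 fell at Diff, Atp5j2 by 0.80 and Atp5pb by 0.40, and of the 9 of complex III and the 4 of complex II none was called there. Of 78 mitochondrial ribosomal protein genes 8 fell and 2 rose at Diff, with a median of -0.04. Mrpl46, Mrps22 and Mrps25 fell by 1.12, 0.80 and 0.78, while Mrpl23 and Mrpl3 rose by 0.65 and 0.55. At Pre 12 of the 78 rose and 7 fell, and without replicate 1 of shScram_Pre the counts were the same but only 14 of the 19 genes were shared, with a median of 0.23 with it and -0.04 without. The background to these counts is the 9.31% and 11.9% of all genes that fell and rose at Diff, and the 12.3% and 15.9% at Pre.

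**Figure D5:**
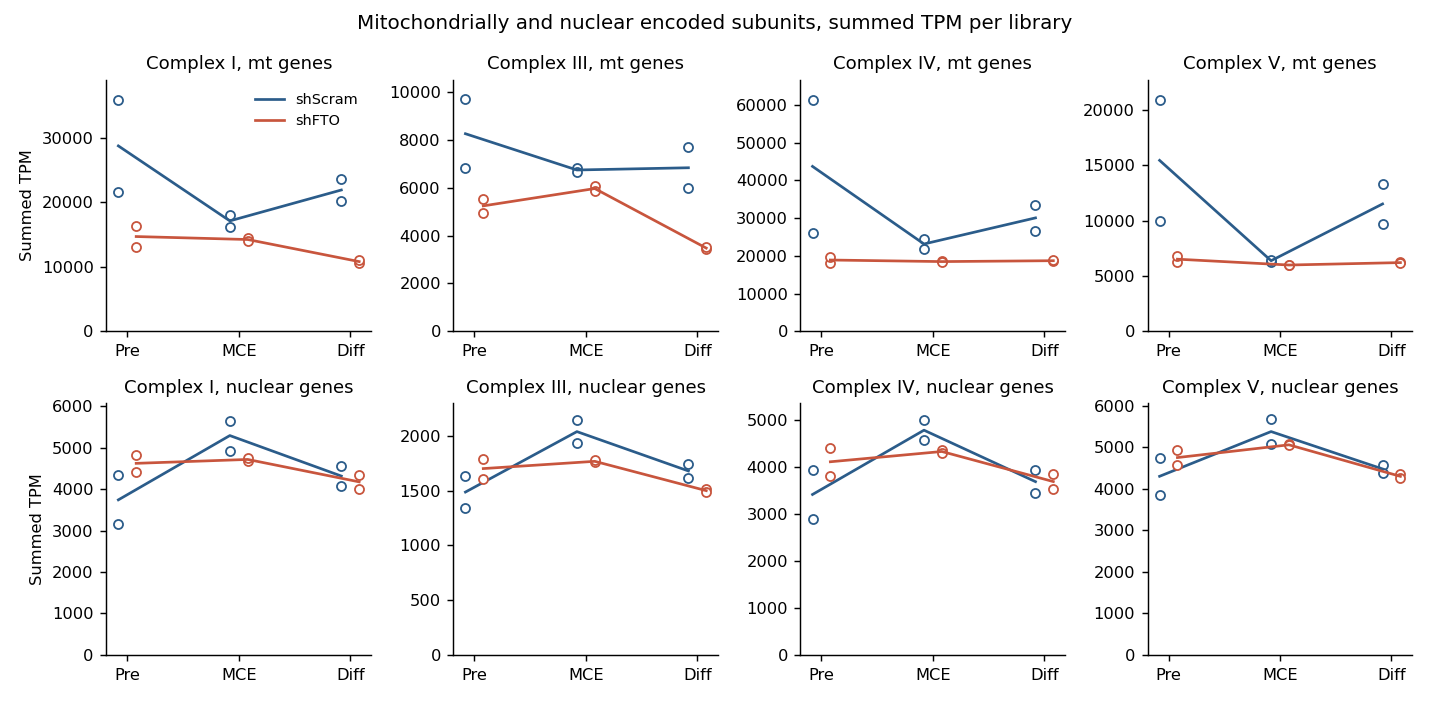
Summed TPM (linear axes from 0) of the mitochondrial and of the nuclear subunits of complexes I, III, IV and V at each stage, with circles for libraries and lines through the group means. At Diff the mitochondrial complex I sum in shFTO was 49.3% of that in shScram, while the nuclear sums of both lines overlapped between 4012 and 4569 TPM.

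Genes that copy, cut and stabilise mitochondrial RNA were examined next. Of 13 genes of mitochondrial transcription and DNA maintenance, Tfam, the packaging and initiation factor, fell by 0.44 at Pre (adjusted p = 0.032) and Tfb2m, the initiation factor that opens promoters, by 0.69 (adjusted p = 0.040, or -0.37 and no longer called, adjusted p = 0.0991, without replicate 1 of shScram_Pre), while the exonuclease gene Mgme1 rose by 0.79. At MCE only Polg2, of the DNA polymerase, fell (-0.67), and at Diff the elongation factor gene Tefm fell (-0.68) and Top1mt, a topoisomerase gene, rose (0.58). Of 24 genes of mitochondrial RNA processing 4 fell at Pre, 0 at MCE and 3 at Diff, and none rose, while 4 fell and 3 rose at Pre without replicate 1 of shScram_Pre. Lrpprc, whose protein stabilises mitochondrial mRNAs, stood at 133 and 102 TPM in shScram_Pre against 59.7 and 66.9 in shFTO_Pre, at 47.4 and 44.6 against 39.7 and 38.9 at MCE, and at 51.7 and 53.4 against 35.2 and 37.4 at Diff. It was lower in both shFTO libraries at each stage, and fell by 0.87 at Pre (adjusted p = 0.00361) and by 0.52 at Diff. Trnt1, which adds the CCA end to tRNAs, stood at 109 and 73.6 TPM in shScram_Pre against 42.8 and 47.6 in shFTO_Pre, and at 54.3 and 61.3 against 35.2 and 31.5 at Diff. It fell by 0.97 and 0.77 at these stages. Pnpt1, of an RNA-degrading complex, fell by 1.06 at Pre, or by 0.64 without replicate 1 of shScram_Pre, and Supv3l1, its helicase partner, by 0.55 at Diff. Of 9 regulators of mitochondrial biogenesis 8 were tested. At Pre Esrra, Myc and Yy1 rose by 2.20, 0.53 and 0.39 and the coactivator gene Ppargc1a fell by 0.92, where the Esrra value rested on 3.91 and 26.1 TPM in the shScram libraries. Leaving out replicate 1 of shScram_Pre gave 0.97 for Esrra, and Myc at 0.24 and Ppargc1a at -0.45 were no longer called (adjusted p = 0.0830 and 0.155). At Diff 1 rose, Yy1 by 0.46, and 1 fell. For these 3 lists the shares of all genes that fell and rose were 12.3% and 15.9% at Pre, 7.26% and 10.5% at MCE, and 9.31% and 11.9% at Diff.

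Markers of the cell types were read beside these results. All 10 fibroblast and preadipocyte markers were above 1 TPM in every library, with sums of 9957 to 15232 TPM and Vim, Col1a2 or Col3a1 as the most abundant. Of 9 adipocyte markers tested 9 rose from MCE to Diff in shScram, against 20.0% of all genes. At Diff 8 were lower in shFTO, against 9.31% of all genes, with a median log2 fold change of -3.47. The fatty acid binding protein gene Fabp4, the most abundant of them in shScram_Diff, stood there at 876 and 836 TPM. The 10 adipocyte markers summed to 1576 and 1565 TPM in shScram_Diff against 454 and 414 in shFTO_Diff. At MCE 7 of the 9 were lower and 1 higher in shFTO, against 7.26% and 10.5% of all genes, with a median of -1.18. At MCE and Diff most adipocyte markers and the mitochondrial share were both lower in shFTO. In shScram 8 of the 9 markers rose and 1 fell from Pre to MCE, against 12.2% and 26.9% of all genes. Over the same step the mitochondrial share fell in shScram. At Pre 1 of the 9 was higher and none lower in shFTO, against 15.9% and 12.3% of all genes. Their part in the mitochondrial difference was not tested at any stage. Macrophage markers summed to at most 11 TPM, endothelial to at most 1.24 TPM and epithelial to at most 1.12 TPM, with 2 to 4, 2 to 4 and 2 to 5 of their genes at 0 in each library. The 7 muscle markers summed to 7.10 to 51.1 TPM in 10 libraries and to 452 and 402 TPM in shFTO_Diff, nearly all from Tnnt3, a troponin gene, at 441 and 391 TPM. At Pre they summed to 51.1 and 35.2 TPM in shFTO against 10.6 and 9.22 in shScram. At MCE the sums were 21.9 and 21.1 against 7.10 and 7.53 TPM. Of the 2 muscle markers tested, 2 were higher in shFTO at Pre, 2 at MCE and 1 at Diff, against 15.9%, 10.5% and 11.9% of all genes. The part of these in the result was not tested. Nuclear noncoding RNAs were read as a sign of RNA handling. Malat1, the most abundant of them, stood at 728 and 597 TPM in shScram_Pre, 159 and 135 in shScram_MCE and 711 and 829 in shScram_Diff. In shFTO it was at 409 and 502 TPM, 104 and 90.7, and 606 and 639. It was thus low at MCE in both lines, as the mitochondrial share was in shScram and the rRNAs were in both lines, with log2 changes from Pre to MCE of -2.16 and -2.21 in shScram and shFTO and rises from MCE to Diff of 2.38 and 2.66. Of the 6 tested in this list, 3 rose from MCE to Diff in each line and none fell. Of all genes 20.0% and 20.2% rose in shScram and shFTO, and 5.22% and 6.48% fell. Against shScram, Malat1 fell in shFTO by 0.54 at Pre (-0.40 and no longer called without replicate 1 of shScram_Pre, adjusted p = 0.0719) and by 0.58 at MCE, and Neat1, at 56.2 and 52.3 against 21.3 and 21.4 TPM, by 1.31 at MCE. Their part in the mitochondrial results was not tested.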

How the data were processed

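The authors deposited TPM values of Ensembl genes, made with StringTie 2.1.4 from reads that Trim Galore 0.6.5 had trimmed and HISAT2 2.1.0 had placed on GRCm38. Genes reaching 1 TPM in 2 or more of the 12 libraries (15968) were kept, and log2(TPM + 1) was fitted with limma 3.58.1 in R 4.3.3 (a mean per group, eBayes with trend, 6 residual degrees of freedom, two-sided). A gene was called at a Benjamini-Hochberg adjusted p under 0.05. This scale understates changes of low genes. Members and lists were chosen with earlier results of these data known. Sums and shares carry no test. Named genes were the most abundant of each class, mt-Nd6, the tRNAs with the 2 highest and 2 lowest called changes in a contrast, and up to 3 called genes in each direction per list. Coordinates and sequences came from GENCODE release M21 (GRCm38), and nuclear copies from BLAST 2.17.0. Python 3.11.15, numpy 2.4.6, pandas 2.3.3 and matplotlib 3.10.9 were used. On data simulated for shFTO_MCE against shScram_MCE (15968 genes), 200 genes were given a log2 change of 2, of which 163 were recovered beside 11 false calls. Alternatives covered the pseudocount, filters, scaling, the libraries in the fit, the spread, the replicate block, GC content and each library left out. The set of nuclear copies and a crossed block were added after seeing the data. Rhein-treated cells were left out, since they form no part of these comparisons. A further gene that the naming rule selects is not reported here.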

Additional observations from a re-analysis of the deposited data

Results flagged for a closer look

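The effect of the Fto knockdown differed between the Pre and MCE stages, by the interaction contrast of limma with Benjamini-Hochberg adjustment over all genes tested, for 3 tRNAs. The log2 fold change of shFTO against shScram was higher at MCE than at Pre by 1.78 for mt-Tl1 (adjusted p = 0.0375), by 2.12 for mt-Tm (adjusted p = 0.0471) and by 1.77 for mt-Td (adjusted p = 0.0471). In each case the shScram_Pre libraries were the highest of the 12. Without replicate 1 of shScram_Pre the differences were 1.45, 2.30 and 1.5 (adjusted p = 0.0151, 0.0143 and 0.0295), and after the GC correction 1.46, 1.84 and 0.90 (adjusted p = 0.0147, 0.0630 and 0.114). With the replicate number as a block the adjusted p-values were 0.0618, 0.0581 and 0.0773, with no filter on low values 0.0908, 0.111 and 0.105, in a fit to the 8 Pre and MCE libraries 0.127, 0.0630 and 0.117, and with a pseudocount of 0.1 0.0443, 0.0617 and 0.0578. Leaving out any 1 of the 10 libraries other than those of shScram_Pre gave 0.0501 to 0.154 for mt-Tl1 and 0.0580 to 0.175 for mt-Td, so neither was called, and mt-Tm was called without replicate 1 or 2 of shScram_Diff (0.0252 and 0.0254) and not without the others (0.0842 to 0.185).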

How the results depend on the processing

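With 2 libraries per group, depth unknown and reads shared with nuclear copies, counts of calls moved more than directions. Of 110 gene and contrast pairs followed, scaling to all other genes, robust eBayes, a pseudocount of 0.1 and the added nuclear copies each left at least 106 on the same side of the threshold. Reversed values came mainly from the GC correction, with and without the block: mt-Nd1 at MCE 0.0481, mt-Ty 0.0486, mt-Td 0.0213 and mt-Nd6 0.138 at Pre, where mt-Tg became a call in the other direction (0.504), and mt-Tg 0.163 and mt-Tl2 0.0307 from Pre to MCE in shScram. mt-Ts1 reversed at MCE under quantile normalization (-0.0215), and at Pre its value ran from -1.91 without replicate 2 of shScram_Pre to 0.107 without replicate 1. The cause was not tested.

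In shFTO against shScram at Pre (23 called), 11 were called with no filter, 0 with only the libraries of the contrast, 10 after the GC correction and 9 with the block added to it. At MCE (7), the libraries of the contrast alone gave 19. At Diff (19) the own libraries gave 26 and no filter 10. From Pre to MCE in shScram (20), no filter gave 9, median ratios 11, the own libraries 4, the GC correction 13 and with the block 12. From MCE to Diff in shScram (9), no filter and median ratios each gave 5 and the own libraries 15. In shFTO, Pre to MCE (9) gave 2 with no filter and 15 with the own libraries. MCE to Diff (8) gave 5 and 26 with these, 14 after the GC correction and 13 with the block. Beside these counts, the fits to the own libraries called 0, 5913 and 6613 of the 15968 genes tested at Pre, MCE and Diff. They called 504 and 6454 in the shScram stage contrasts, and 7999 and 8684 in those of shFTO. The interaction of Pre and MCE (3) gave 1 with a pseudocount of 0.1, 0 with no filter, 0 with the own libraries, 0 with the replicate block, 1 after the GC correction and 1 with both. That of MCE and Diff (0) gave 1 under quantile normalization, 13 with the own libraries, 3 after the GC correction and 2 with the block.

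Leaving out each library in turn gave 4 to 33 calls at Pre, 2 to 14 at MCE and 3 to 28 at Diff, 5 to 32 and 1 to 22 in the shScram stage contrasts, 1 to 16 and 3 to 22 in those of shFTO, and 0 to 30 and 0 to 9 in the interactions. The log2 ratio of the mitochondrial share, -1.10, -0.30 and -0.85 at Pre, MCE and Diff, ranged from -1.51 to -0.52, -0.36 to -0.23 and -1.0 to -0.69.

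Same-numbered libraries did not deviate together (correlations -0.29 to 0.17), so the numbers pair nothing. With the replicate block 20, 6 and 16 genes were called at Pre, MCE and Diff, and with the numbers of shFTO_Pre crossed, a choice made after seeing the data, 22 at Pre.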
